A study of Mus musculus with 8 samples.

Results

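The microRNAs (miRNAs) described here are 4 mature arms of the myosin-gene family: mmu-miR-208a-3p, mmu-miR-208a-5p, mmu-miR-208b-3p and mmu-miR-499-5p (mmu for mouse, left out from here on). They were taken by name from the array and are 4 of the 1881 mouse miRNAs it carries. Their remaining partner arms, miR-208b-5p and miR-499-3p, were added so that all 6 arms of the 3 precursors could be set side by side. The samples were plasma of female NMRI mice, an outbred stock, 3 months old and weighing 30 to 33 g. The IMB group, with 3 arrays, was given the tyrosine kinase inhibitor imatinib (IMB) orally, 100 mg/kg on each of 9 days. The DOX group, with 3 arrays, had 4 tail vein injections of the anthracycline doxorubicin (DOX), every second day, of 3 mg/kg each. The CTRL group received the solvents only and has 2 arrays. Each array was hybridised with Cy3-labelled RNA of a plasma pool from 3 mice (300 µl), which the labels call a biological replicate, so the spread between arrays is a spread between pools and says nothing of single mice.

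In mammals, a miRNA precursor folds into a hairpin from which a 5p and a 3p arm are cut. Usually one arm is loaded into the Argonaute protein as the guide, and the other, the passenger, is mostly degraded. The miR-208a precursor lies in an intron of Myh6, the fast cardiac myosin heavy chain of the adult mouse heart. miR-208b lies in Myh7, the slow heavy chain of the fetal heart and of slow skeletal muscle, and miR-499 lies in Myh7b. For the miR-208 pair the arm usually studied is 3p and for miR-499 it is 5p. All of them are known as heart- or muscle-enriched miRNAs that are sought in blood as signs of cardiac muscle injury, and doxorubicin is known for its cardiotoxicity.

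The 6 mature arms are shown because the results turn on one of them being bright while the others were dark. They are written 5′ to 3′ as RNA from RefSeq, with the seed, bases 2 to 8, in capitals.
miR-208a-5p: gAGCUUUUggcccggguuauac
miR-208a-3p: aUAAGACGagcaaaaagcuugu
miR-208b-5p: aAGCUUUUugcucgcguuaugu
miR-208b-3p: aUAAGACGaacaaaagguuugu
miR-499-5p: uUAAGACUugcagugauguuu
miR-499-3p: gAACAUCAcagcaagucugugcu
On GRCm38.p6, miR-208a-5p spans chr14:54949107-54949128 and miR-208a-3p chr14:54949072-54949093, both on the minus strand within Myh6. miR-208b-5p spans chr14:54975745-54975766 and miR-208b-3p chr14:54975710-54975731, both on the minus strand within Myh7. miR-499-5p spans chr2:155622893-155622913 and miR-499-3p chr2:155622929-155622951, both on the plus strand within Myh7b.

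The 3p arms of miR-208a and miR-208b share the seed UAAGACG, and the seed of miR-499-5p differs from it by G8U, counted from the 5′ end of the arm. The full 3p arms of the miR-208 pair differ at 3 of 22 positions, G10A, A16G and C18U, with the miR-208a base first. Their 5p arms share the seed AGCUUUU and differ at 6 of 22 positions, G1A, G9U, C12U, G15C, A21G and C22U. The 5p arm of miR-208a held 12 G or C bases, a GC content of 54.5%, against 36.4% in its 3p arm, 40.9% in miR-208b-5p, 31.8% in miR-208b-3p, 33.3% in miR-499-5p and 47.8% in miR-499-3p. Among the 6 arms, miR-208a-5p was the richest in GC. Both arms are in capitals in the miR-208a hairpin (chr14:54949060-54949142, minus strand), in which they occupy bases 15 to 36 and 50 to 71 of 83.
Mir208a: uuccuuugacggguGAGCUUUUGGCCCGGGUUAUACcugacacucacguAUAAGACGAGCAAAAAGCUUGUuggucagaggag

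All 8 arrays were on 1 slide read in 1 scan, and no spot was saturated. Between 258 and 339 miRNAs were detected per array, 357 on at least 1 array and 245 on all 8. A probe was taken as detected when more than 50% of its retained spots were marked well above background by the scanner software, and a miRNA when at least 1 of its probes was. The 75th percentile of signal, by which the arrays were scaled, lay between 196 and 425 in IMB arrays, between 213 and 267 in DOX arrays and was 300 and 349 in CTRL arrays. With 2 or 3 arrays per group, their number limits the precision.

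Of the 4 listed arms, only miR-208a-5p was detected, and it was detected on all 8 arrays. Each arm was read by 2 probes with 15 spots per array, so that each probe gave 120 spots over the 8 arrays. For miR-208a-5p, 120 of 120 spots of each probe were well above background. For the other 5 arms, 0 of 1200 spots on 10 probes were. The scanner software's own detection flag and a rule that asked every retained spot to be well above background gave the same 1 of 4.

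Before scaling, the processed signal of miR-208a-5p, averaged over its probes, was 231.3, 599.9 and 507.3 in IMB pools, 576.6, 487.6 and 536.9 in DOX pools, and 619.4 and 786.3 in CTRL pools. For miR-208a-3p, cut from the same hairpin, the same average was -1.59, -3.57 and -3.35 in IMB pools, -2.28, -1.75 and -1.19 in DOX pools, and -1.72 and -2.82 in CTRL pools. The 3p arm was thus below 0 in every pool after background subtraction, and its group ranges overlapped. The scanner software's summed signal per miRNA was 98.1, 325.6 and 215.2 for miR-208a-5p in IMB pools, 244.5, 206.8 and 227.7 in DOX pools, and 262.7 and 435.6 in CTRL pools. It was 0.1, the lowest value it writes, for each of the other 5 arms on every array. In the authors' deposited table those 5 arms likewise stood at the bottom value of every column, while miR-208a-5p was at 7.14, 7.37 and 7.62 in IMB pools, 8.36, 7.88 and 7.95 in DOX pools, and 8.001 and 8.19 in CTRL pools, in log2 units.

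**Figure D1:**
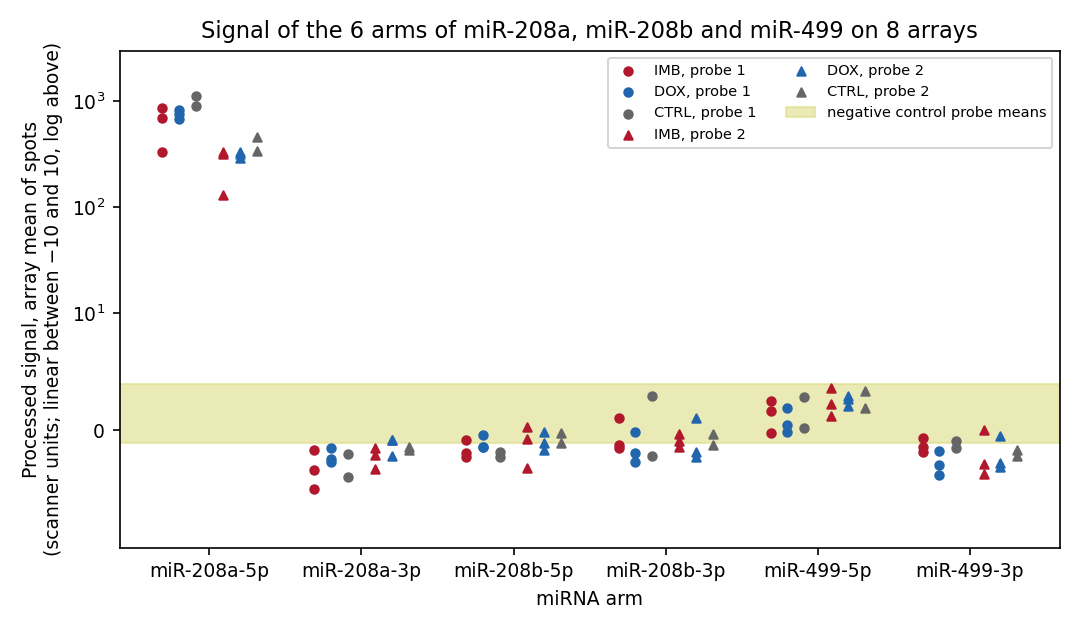
Processed signal of each probe (mean of its spots, scanner units, axis linear between -10 and 10 and logarithmic above) for the 6 arms, with a point per array coloured by group; the band spans the mean signals of the negative control probes. Both miR-208a-5p probes lie between 130.2 and 1110, and every point of the other 5 arms lies between -5.03 and 3.63.

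The dark arms were set against the array's own negative controls, which have no mouse target. These comprised 1000 spots per array under 7 names, and their mean signal lay between 0.782 and 1.66 on the 8 arrays, with single probe means between -1.05 and 3.96. The 99th percentile of the control spots was 9.48 to 11.8 and the brightest reached 28.04. Of the 8000 control spots, 3 (0.0375%) were well above background. The 10 probes of the 5 dark arms averaged between -5.03 and 3.63 per array. Their brightest spot, at 14.13, was a miR-499-5p spot in the second DOX pool. It was above the brightest control spot of that array, at 12.05, but was not marked well above background. The control spot at 28.04 was on the array of the third DOX pool.

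miR-499-5p, the arm of miR-499 usually found in muscle, was the highest of the dark arms. Its second probe averaged 2.35 ± 1.23 in IMB pools, 2.54 ± 0.443 in DOX pools (SD, n = 3 each) and 2.63 ± 1.05 in CTRL pools (SD, n = 2), which differ by less than the spread between pools. That probe was above the mean of the control spots on 8 of 8 arrays but above every control probe on only 1, and the first probe was above the control mean on 4 of 8. By the scanner's laxer criterion of a positive and significant signal, 24.2% and 30.8% of the miR-499-5p spots passed, against 22.9% of all control spots, and between 10.7% and 41.2% for single control probes. The corresponding shares were 15.8% and 12.5% for miR-208b-3p and 2.5% and 3.33% for miR-208a-3p. For these arms, a level was not detectable with this array. No fold change is given for them, since no spot on either side of a comparison was well above background.

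The bright arm was measured with little error within an array. The spots of a miR-208a-5p probe had a coefficient of variation between 2.54% and 6.04%, with a median of 3.63%, against 7.27% over the 454 probes detected on all arrays. Its first probe averaged 332.5 to 1110 and its second 130.2 to 462.2. Averaged over the arrays, the first was 2.45 times as bright as the second. For the 172 miRNAs with 2 probes detected on all arrays, miR-208a-5p among them, the brighter probe exceeded the dimmer by a median of 1.51 times. Of the 172, 39 had a ratio at least as large as that of miR-208a-5p, itself counted. Across the 8 arrays, the probes of miR-208a-5p had a Pearson correlation of 0.970, against a median of 0.981 for the 172 pairs. These probes read the same labelled RNA, so this correlation does not stand for independent samples. The ratio of the probes was not constant. It ran between 2.17 and 2.66. Its SD on the log2 scale, 0.0971, was equalled or undercut by 145 of the 172 pairs, its own counted. The median SD of the 172 pairs was 0.0548.

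By scanner brightness, which depends on each probe and is no measure of abundance, miR-208a-5p ranked 57, 49 and 43 in IMB pools, 28, 36 and 35 in DOX pools, and 33 and 31 in CTRL pools among the 245 miRNAs detected on all arrays. The IMB pools thus had the lowest placings. Scaling leaves the ranks within an array unchanged, so the placings are no result separate from the scaled differences given below. How many of the 245 miRNAs were placed lowest in IMB pools was not counted.

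Most 3p arms on the array were dark, whether or not their 5p arm was detected. Of the 723 precursors with both arms represented, 111 had a 5p arm detected on all 8 arrays, and in 95 of these (85.6%) the 3p arm was detected on none. Over all 723 precursors the 3p arm was detected on no array in 626 (86.6%), and over the 567 whose 5p arm was detected on no array it was so in 490 (86.4%). The share among precursors with a detected 5p arm was thus that of the array as a whole. The opposite pattern, a 3p arm on all arrays with the 5p arm on none, was found for 51 precursors, and both arms were detected on all arrays for 8. Neither arm was detected on any array for 490, among them miR-208b and miR-499. On single arrays, between 88.0% and 92.3% of the detected 5p arms lacked a detected 3p arm. By the scanner software's detection flag the count was 104 of 126 (82.5%).

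**Figure D2:**
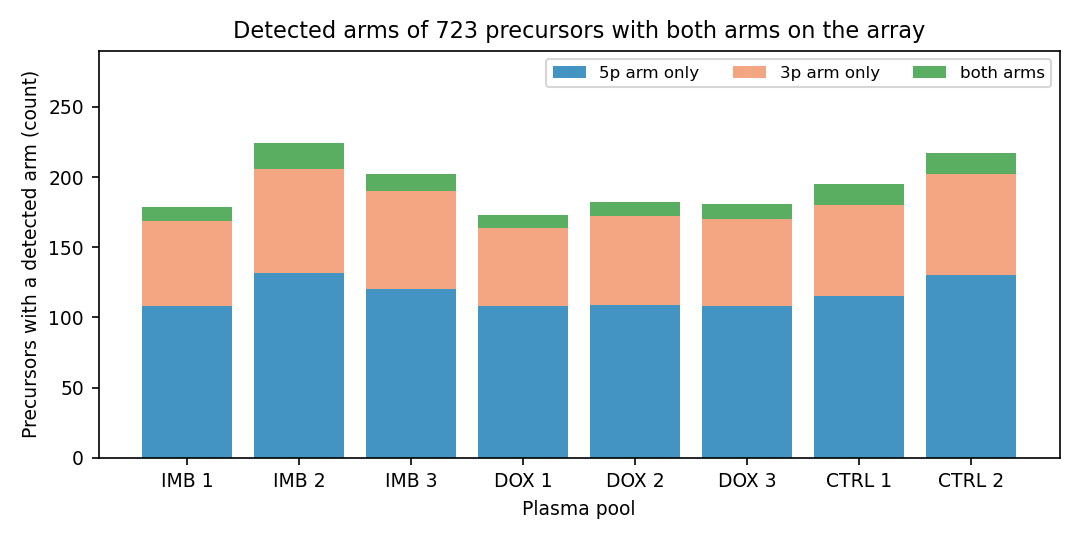
Number of precursors (of 723 with both arms on the array) with only the 5p arm, only the 3p arm or both arms detected, stacked for each plasma pool. Precursors with only the 5p arm number 108 to 132 in every pool and those with both arms 9 to 18.

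Ordered by mean processed signal of the 5p arm, miR-208a-5p was 11th of these 95, at 543.2 with its 3p arm at or below -1.19 on every array. The 8 brightest were miR-6769b-5p, miR-21a-5p, miR-1224-5p, miR-7036a-5p, miR-6931-5p, miR-7118-5p, miR-7015-5p and miR-1897-5p. Of these, miR-21a-5p is the known guide arm of its precursor, abundant in many cell types. It had a mean signal of 2437, and its 3p arm reached at most -0.993. miR-6769b-5p had a mean signal of 5779 with its 3p arm at no more than 4.17. In 7 of the 8, and in 88 of the 95 with miR-208a among them, the highest array signal of the 3p arm was below 9.48, the lowest 99th percentile of the control spots on any array. The exception among the 8 was miR-1897, whose 3p arm reached 11.8. That percentile is of single spots, whereas an arm signal is a mean over spots and probes. Control probe means reached at most 3.96, and among the 8 the 3p arms of miR-6769b and miR-1897 were above that. Further 3p arms among the 95 were too, such as that of miR-7046 at 8.32, whereas that of miR-208a was not.

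Base composition was compared because miR-208a-5p is the GC-rich arm of its pair. Sequences were matched for 1608 of the 1881 miRNAs. Their median GC content was 52.2%, that of the miRNAs detected on all arrays was 54.5% (214 of 245 matched) and that of the miRNAs detected on none was 52.2%. The 5p arms detected without their 3p arms had a median of 58.3% (83 of 95 matched), and 63.9% of them were at least as GC-rich as miR-208a-5p. In the pairs with both arms detected on all arrays, the 5p arms had a median of 47.8%, over the 5 of 8 that were matched. The part of base composition in the signal of miR-208a-5p was not tested.

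Stretches that miR-208a-5p shares with other mouse miRNAs were also searched, since a shared stretch is where a probe could meet another target. The longest run shared with any of 1607 other miRNAs was 9 bases, in miR-6415, which was detected on 0 arrays, and the median was 4. Runs of 8 or more were found in 8 miRNAs, of which 4 were detected on all arrays. They are shown with the shared run in capitals.
miR-208a-5p: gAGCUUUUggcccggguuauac
miR-3095-3p: uggacacuggagagaGAGCUUUU
miR-3547-5p: gugggaagagggguggGGCCCGGGa
miR-6366: agcuaaggGGCCCGGGgagcca
miR-7648-3p: agggcugGGCCCGGGacgcgg
In the first line the capitals are again the seed. miR-3095-3p shares bases 1 to 8 of miR-208a-5p, GAGCUUUU, and the other 3 share its bases 9 to 16, GGCCCGGG. Their scaled log2 signals had Pearson correlations of -0.15, -0.04, -0.07 and 0.10 with that of miR-208a-5p over the 8 arrays, in the order printed. The IMB minus CTRL differences of these 4 were -0.24, -0.20, 0.33 and 0.05 on the log2 scale, each smaller in size than that of miR-208a-5p given next. Hybridisation of other RNA to the miR-208a-5p probes was not tested. The values above cannot test it, as the probe sequences were not available here and only mature miRNAs were searched.

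After scaling, miR-208a-5p was lowest in the imatinib group. Its log2 scaled signal was 8.38, 8.63 and 8.80 in IMB pools, 9.58, 9.11 and 9.15 in DOX pools, and 9.18 and 9.31 in CTRL pools. Every IMB pool was below every DOX and CTRL pool, while the DOX pools spanned the CTRL values. The means were 8.60 ± 0.21 in IMB pools, 9.28 ± 0.26 in DOX pools (SD, n = 3 each) and 9.25 ± 0.09 in CTRL pools (SD, n = 2).

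**Figure D3:**
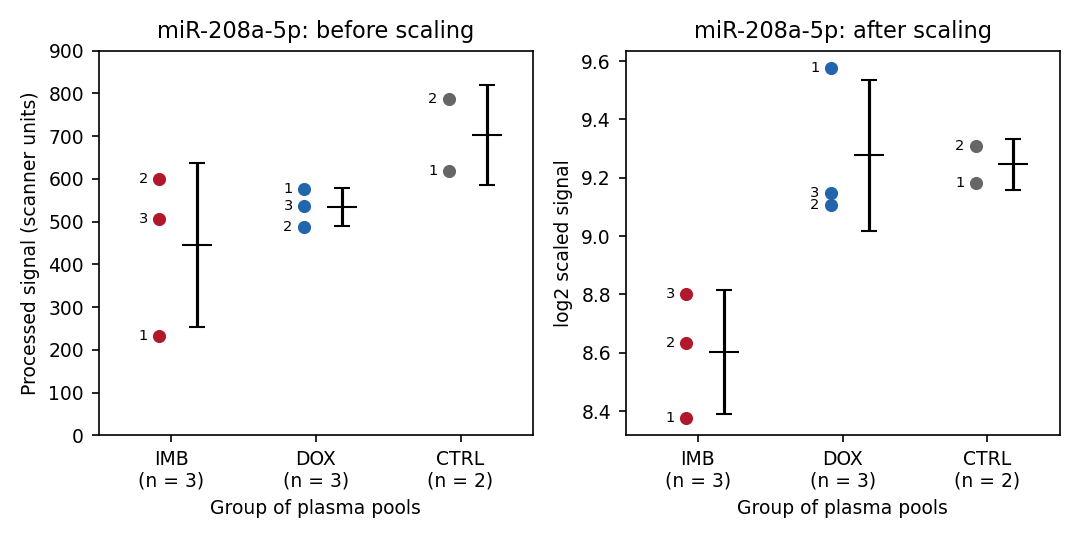
Signal of miR-208a-5p in each plasma pool (numbered points) before scaling (left, scanner units) and after scaling (right, log2 scaled signal), with mean and SD beside each group. After scaling, the IMB pools lie at 8.38 to 8.80, below the DOX pools at 9.11 to 9.58 and the CTRL pools at 9.18 and 9.31, whereas before scaling the IMB and DOX pools overlap.

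Neither imatinib difference passed the test over all miRNAs. The IMB minus CTRL difference was -0.64 on the log2 scale (SE 0.19, 95% confidence interval -1.11 to -0.18), a signal 1.56-fold lower in IMB pools. With limma and Benjamini-Hochberg adjustment over the 294 miRNAs tested, its adjusted p was 0.301 (unadjusted p = 0.0154). An exact two-sided permutation test over pools gave p = 0.1, the smallest value that 3 pools against 2 allow. Before scaling the difference was -0.76, with an exact permutation p of 0.2, and every IMB pool was still below both CTRL pools. How many of all miRNAs had that unscaled order was not counted. Of the 294 miRNAs, 1.02% were called in this comparison at an adjusted p under 0.05 in either direction, 2.38% were lower at an unadjusted p under 0.05, and 6.80% had every IMB pool below both CTRL pools, so the lack of overlap alone was shared by 20 miRNAs. The red cell index, miR-451a minus miR-23a-3p on the log2 scale, a measure of red cell lysis, was 3.91, 4.45 and 3.90 in IMB pools, 3.15, 2.69 and 2.73 in DOX pools, and 3.84 and 3.18 in CTRL pools. It was thus highest in the IMB pools, where miR-208a-5p was lowest. Over the 8 arrays, the Pearson correlation with miR-208a-5p was -0.59 for miR-451a, -0.85 for miR-144-3p and -0.51 for miR-486a-5p, the 3 red cell markers (Spearman -0.52, -0.595 and -0.43). Without the first and second IMB pools it was -0.13 for miR-451a, -0.69 for miR-144-3p and 0.14 for miR-486a-5p. The summed scaled signal of the 3 red cell markers, all detected, ranged from 29870 to 37720 in IMB pools, 16440 to 25110 in DOX pools and 20770 to 34830 in CTRL pools. The part of red cell RNA in the difference was not tested.

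The IMB minus DOX difference was -0.67 (SE 0.17, 95% confidence interval -1.09 to -0.26), a signal 1.60-fold lower in IMB pools, with an adjusted p of 0.194 from limma (unadjusted p = 0.0079) and p = 0.1 by the exact permutation test, again its smallest possible value. Here 1.02% of the miRNAs were called at an adjusted p under 0.05, 5.10% were lower at an unadjusted p under 0.05, and 8.16% had every IMB pool below every DOX pool. Before scaling, the difference was -0.37 with an exact permutation p of 0.7, and the IMB and DOX ranges overlapped. With miR-24-3p and miR-23a-3p as the scale, it was -0.29.

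In miR-208a-5p, the doxorubicin and control pools overlapped after scaling but not before it. The DOX minus CTRL difference was 0.03 (SE 0.19, 95% confidence interval -0.43 to 0.50), with an adjusted p of 1 from limma and p = 1 by the exact permutation test. The interval does not show that the groups are alike. In this comparison 0.340% of the miRNAs were called at an adjusted p under 0.05. Without scaling, the sign turned: the difference was -0.39, every DOX pool was below both CTRL pools, and the exact permutation p was 0.1, the smallest possible. The arrays as a whole had the same order. Their 75th percentile of signal was 213 to 267 in DOX arrays and 300 and 349 in CTRL arrays. The share of all miRNAs with this unscaled order was not counted, so it is no result about miR-208a-5p in particular.

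Both probes gave these differences. The first probe had -0.66 for IMB minus CTRL, 0.01 for DOX minus CTRL and -0.67 for IMB minus DOX, and the second had -0.61, 0.08 and -0.69 in the same order. The slide holds its arrays in 2 rows with all groups in each. The first row held 1 IMB, 2 DOX and 1 CTRL pool, and the second 2 IMB, 1 DOX and 1 CTRL pool. In the first row IMB minus CTRL was -0.81 and IMB minus DOX -0.96, and in the second -0.59 and -0.43. DOX minus CTRL was 0.16 in the first row and -0.16 in the second. Each of these differences has a single pool on at least 1 side. In plasma, a smaller number of releasing cells and less RNA released per cell cannot be told apart.

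**Figure D4:**
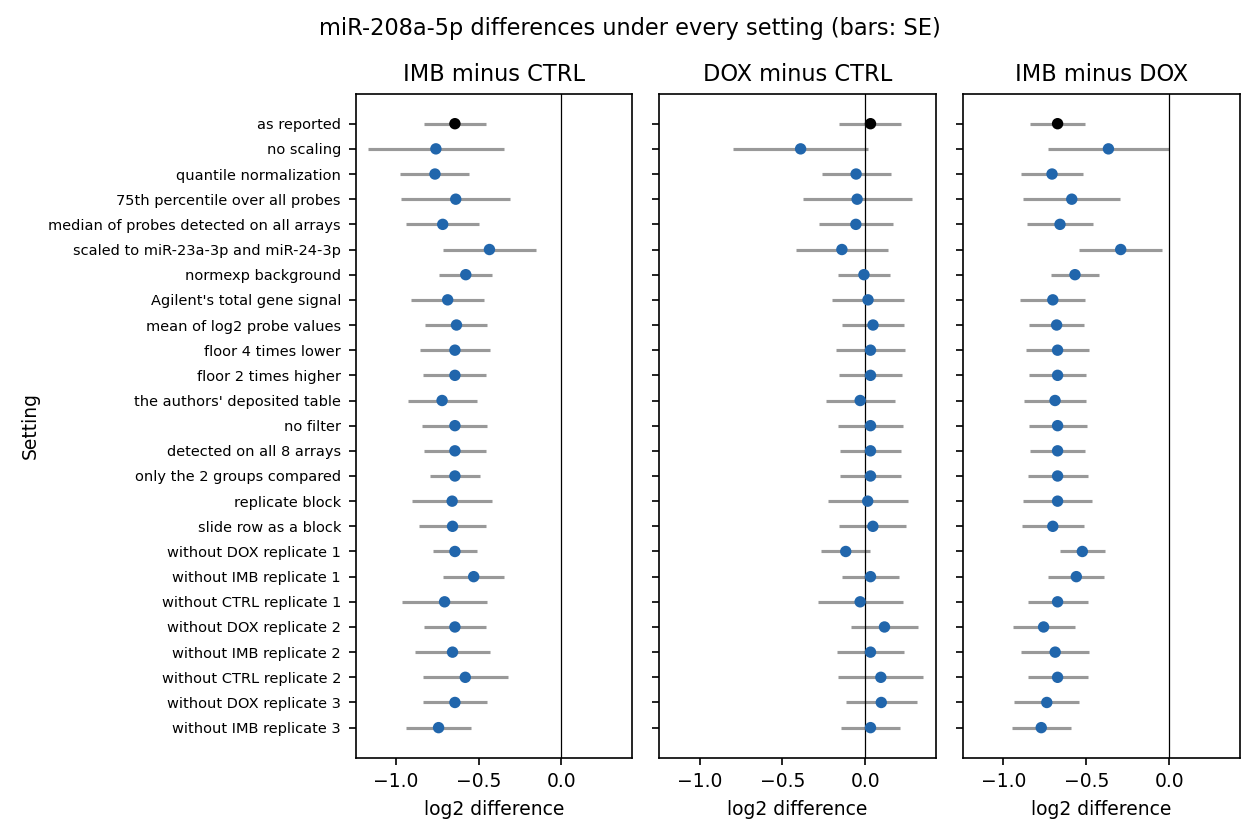
Log2 differences of miR-208a-5p for IMB minus CTRL, DOX minus CTRL and IMB minus DOX (points, with SE bars) as reported (black) and under each other setting (blue), down the page. Both imatinib differences are below 0 under every setting shown, and DOX minus CTRL lies on both sides of 0.

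Across the 95 precursors with a 5p arm only, the median IMB minus CTRL difference was 0.05, and 40 of the 95 were lower in IMB pools. Over all 294 tested miRNAs the median was 0.01, and 115 were lower. Every IMB pool was below both CTRL pools for 8 of the 95, miR-208a-5p included, against 20 of the 294 tested miRNAs (6.80%). miR-21a-5p, with a difference of -0.44, and miR-1224-5p, with -0.67, were also among them. The other 6 of the 8 brightest precursors named above had overlapping IMB and CTRL values.

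Other muscle miRNAs gave the context. Of 12 listed muscle-enriched arms, 8 were detected on no array, miR-206-3p, the skeletal muscle member of the miR-1 family, among them. The 4 detected were miR-1a-3p, miR-133a-3p, miR-133b-3p and miR-486a-5p, which red cells also carry. None of the 4 passed an adjusted p under 0.05 in any of the 3 comparisons, against the 1.02%, 0.340% and 1.02% of all miRNAs given above. miR-1a-3p, a guide arm abundant in heart and skeletal muscle, was at 6.85, 9.01 and 5.15 in IMB pools, 7.01, 5.03 and 5.04 in DOX pools and at the floor of 4.39 in both CTRL pools. As miR-1a-3p was detected on all 8 arrays, its floor value in CTRL pools stands for a detected signal no higher than the floor. miR-133b-3p was at 6.95, 8.59 and 5.30 in IMB pools, 6.85, 5.67 and 6.29 in DOX pools and 4.80 and 4.79 in CTRL pools. For both, every treated pool was above both CTRL pools, as was the case for 10.9% of all tested miRNAs in IMB pools and 18.7% in DOX pools, and the pools of a treatment differed widely among themselves. For miR-133a-3p this order held in DOX pools only. miR-133a-3p was at 6.03, 7.67 and 4.39 in IMB pools, 5.97, 4.54 and 5.02 in DOX pools and 4.39 in both CTRL pools. It was detected on 7 arrays, so a floor value is not always a lack of detection. miR-486a-5p was at 10.59, 10.51 and 9.86 in IMB pools, 9.96, 9.26 and 8.86 in DOX pools and 10.36 and 9.57 in CTRL pools. Its values overlapped those of CTRL under both treatments. The limma IMB minus CTRL difference was 2.16 for miR-133b-3p (SE 0.95, adjusted p = 0.68). None is given for miR-1a-3p, since the floor would set its size.

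Over all 8 pools, the muscle miRNAs and miR-208a-5p did not run together. The second IMB pool had the highest miR-1a-3p and miR-133b-3p and the second-lowest miR-208a-5p, whereas the first DOX pool was high in all 3. The Pearson correlation with miR-208a-5p over 8 arrays was -0.43 for each of miR-1a-3p and miR-133b-3p (Spearman -0.42 and -0.52, the CTRL pools of miR-1a-3p being tied at the floor), and without the 2 pools farthest from the median of miR-208a-5p, the first and second IMB pools, it was 0.53 and 0.45. For miR-133a-3p, tied at the floor in both CTRL pools and the third IMB pool, the Pearson correlation was -0.415 (Spearman -0.439). Without the same 2 IMB pools it was 0.719. The relation thus rests on those 2 pools. The arrays share a slide and a scaling, and the values are given as a description.

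**Figure D5:**
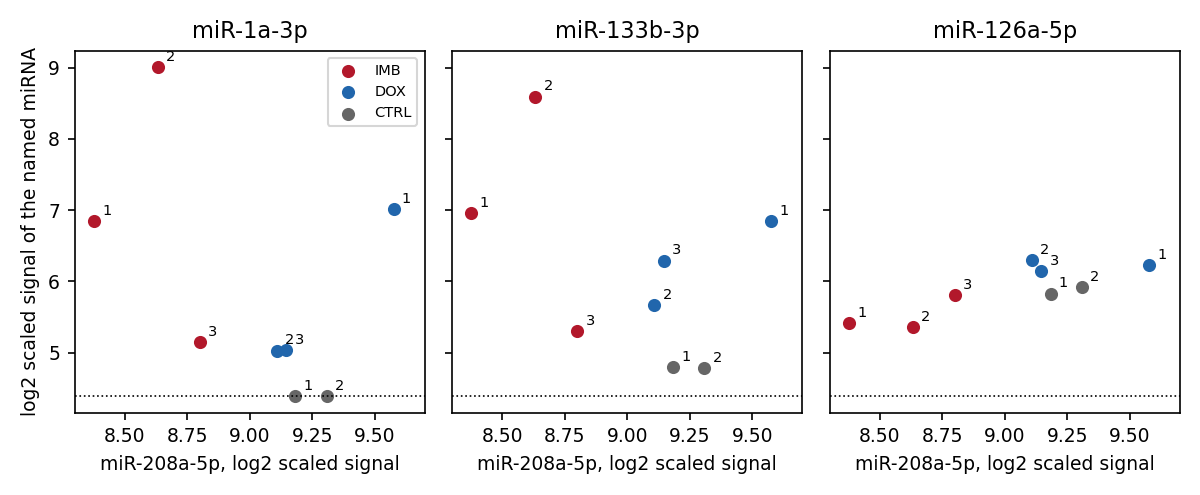
Log2 scaled signal of miR-1a-3p, miR-133b-3p and miR-126a-5p (vertical axes) against that of miR-208a-5p (horizontal axes) in 8 plasma pools, numbered and coloured by group; the dotted line is the floor at 4.39. miR-1a-3p is highest in the second IMB pool at 9.01 and at the floor in both CTRL pools, while miR-126a-5p is lowest in IMB pools, where miR-208a-5p is lowest too.

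Of the 244 other miRNAs detected on all arrays, the 5 whose pattern was most like that of miR-208a-5p were miR-6965-5p, miR-126a-5p, miR-3113-5p, miR-1982-5p and miR-10b-5p. Their Pearson correlations over the 8 arrays were 0.88, 0.82, 0.81, 0.81 and 0.75, the median over all 244 was -0.07, and Spearman correlations of the 5 lay between 0.62 and 0.69. Without the first and second IMB pools the Pearson values lay between 0.46 and 0.69. miR-126a-5p, an arm of the endothelium-enriched miR-126 precursor, was at 5.42, 5.36 and 5.81 in IMB pools, 6.23, 6.30 and 6.14 in DOX pools, and 5.83 and 5.92 in CTRL pools. Like miR-208a-5p it was lower in every IMB pool than in every DOX and CTRL pool. It was chosen by its correlation with miR-208a-5p, so this likeness is no separate result. For miR-126a the 3p arm was detected on all 8 arrays too. That arm was at 8.95, 9.35 and 9.96 in IMB pools, 9.865, 10.04 and 9.87 in DOX pools, and 9.45 and 9.53 in CTRL pools. Its IMB values thus overlapped those of both other groups. For the other 4 of the 5 miRNAs, the opposite arm was detected on none.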

How the data were processed

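Plasma RNA was read on 1-colour Agilent miRNA arrays. The deposited scanner text files hold intensity values per spot, which Agilent Feature Extraction (version 11.5.1.1, per the file headers) wrote. The authors' deposited table holds 1 log2 value per miRNA and array, and its background correction and normalization are not stated in the labels. The processed signals (already background-subtracted by the scanner software) of the spots not marked as outliers were averaged per probe, scaled to their 75th percentile among 454 probes that every array detected, averaged per miRNA, set to a floor of 20.9 (log2 4.39) where lower, and log2 transformed. The 294 miRNAs detected on all arrays of at least 1 group were tested with limma 3.58.1 (R 4.3.3, lmFit and eBayes, all 8 arrays in the fit) with Benjamini-Hochberg adjustment over all of them and a threshold of 0.05. The fit was tested on simulated data. Exact permutation tests over pools were two-sided. Mature sequences and hairpins came from RefSeq (GRCm38.p6). The arms, the gene lists and the rule for named miRNAs (the 4 arms, their partners, the muscle list, the 5 most correlated miRNAs, the 8 brightest precursors with a 5p arm only, and blood markers) were chosen with earlier results of these data known, and the 4 miRNAs sharing runs of 8 bases were added after the values were seen. Alternatives in scaling, background correction, floor, filter, model and samples are given in the closing section.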

Additional observations from a re-analysis of the deposited data

How the results depend on the processing

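The detection of 1 of the 4 arms was the same under all 3 detection rules. The IMB minus CTRL difference of miR-208a-5p was negative under 16 of 16 other settings (-0.76 to -0.43, adjusted p 0.166 to 1), and between -0.74 and -0.53 with single pools left out. The IMB minus DOX difference was negative under 16 of 16 (-0.71 to -0.29, adjusted p 0.137 to 1), and between -0.77 and -0.52 with single pools left out. Neither passed an adjusted p under 0.05 under any of these settings. The DOX minus CTRL difference changed sign: it was -0.39 without scaling, -0.0556 with quantile normalization, -0.0493 with the 75th percentile over all probes, -0.057 with the median of detected probes, -0.14 relative to miR-24-3p and miR-23a-3p, -0.00822 with normexp, -0.031 in the authors' deposited table, and -0.12 to 0.12 with single pools left out. The cause was not tested. Correlations of same-numbered deviations ran from -0.237 to 0.404, which, with so few pools, cannot settle whether replicate numbers pair the samples. With the replicate block the differences were -0.66 for IMB minus CTRL (adjusted p = 0.467), 0.01 for DOX minus CTRL and -0.67 for IMB minus DOX (adjusted p = 0.405, limma).

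Counts of miRNAs called over the whole array moved as follows. DOX minus CTRL had 1 call, against 2 with the 75th percentile over all probes, Agilent's total gene signal, a floor 4 times lower or the authors' deposited table, 0 with no filter, only the compared groups or the replicate block, and 0 to 2 with single pools left out (0 without the first CTRL pool, 2 without the second CTRL pool or the first IMB pool). IMB minus CTRL had 3, against 0 without scaling, with the 75th percentile over all probes, relative to miR-24-3p and miR-23a-3p or with no filter, 1 with the median, Agilent's total gene signal, either other floor or the authors' deposited table, and 0 to 12 with single pools left out (12 without the first IMB pool, 0 without the second or the third, 1 without either CTRL pool). IMB minus DOX had 3, against 5 with Agilent's total gene signal or the lower floor, 6 with the mean of log2 probe values, and 3 to 20 with single pools left out (20 without the first IMB pool).
The count of precursors with a 5p arm on all arrays and a 3p arm on none was 95, and 95 to 99 with single arrays left out. Signal over background limits 5 of the 6 arms: no difference between groups could be measured for them.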
